A study of Mus musculus with 2 samples.

Results

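Reproducible intronic contigs are unbroken stretches of mapped RNA reads that lay inside annotated genes of the mouse embryonic liver, on the strand of the gene, but shared no base with any annotated exon. They were taken from a deposited list of contigs on the mm9 build by 3 criteria, the first of them measured. They were selected on an irreproducibility value of at most 0.01, a field without a header that was read as the disagreement between replicates. The contig lay within a same-strand ENSEMBL gene span, and it touched no same-strand ENSEMBL exon. Of 602461 contigs in the list, 191153 (31.7%) met the irreproducibility threshold. Of the 292060 contigs within introns, 71372 (24.4%) did so, and these 71372 regions in 8098 host genes are described here. Since that value depends on the reads of a contig, their level and length are given as a description without a test.

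The RNA came from livers of C57BL/6J embryos at day 14 of gestation, with no treatment or genetic change named. The series holds 1 group of 2 libraries, called biological replicates 1 and 2, each made from tissue of male and female littermates pooled together. Polyadenylated RNA above 200 nucleotides was read from both ends with the strand kept. Both libraries have the same donor entry, and the labels do not say whether the pools were separate litters, so the spread between them may be technical.

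An intron is the part of a gene that is transcribed into the precursor RNA and then cut out by the spliceosome while exons are joined. Selection for the poly(A) tail enriches finished mRNA, so most reads of such a library fall in exons, and the remainder can include precursor RNA, introns kept in the transcript, exons that an annotation does not list, and RNAs with their own promoters inside an intron. Many microRNAs are also cut from introns, as hairpins released by Drosha from the host transcript. The embryonic liver at this stage is mainly a site of red cell formation, with immature hepatocytes, macrophages, megakaryocytes, endothelium and stromal cells around it.

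Replicates 1 and 2 held 97174777 and 149348514 expected counts on mouse genes. Both showed the tissue named in the labels: Alb, the main plasma protein of hepatocytes, stood at 9112 and 10440 TPM, a length-scaled share of all transcripts, and the globin gene Hbb-bt at 81770 and 74840 TPM. Of 17 genes of muscle and other adjacent tissue, 16 were higher in replicate 1, with summed levels of 85.4 and 9.97 TPM, and none was at 0 in both. The contig list gives no value for each library, so the part of that difference in the contigs was not tested. Values for each replicate come from the host genes, from splice junctions and from exons of Cufflinks transcript models. The junction and mm9 tables number their replicates 1 and 2 without naming the library, so those numbers are kept apart from the labelled replicates.

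MicroRNA hairpins are annotated as exons of their own, so a contig that ran through one was not counted as intronic, and the contigs that stopped just beside one were. This comparison was chosen after the data were seen. Of 1081 microRNA genes in the mm9 table, 358 lay in an intron of another gene, and 120 of these were overlapped by a reproducible contig. There were 16 intronic contigs within 200 bases of 15 hairpins, 9 of them within 50 bases. Over the 22940 genes with introns and a TPM value, 9.885% of intronic bases lay in reproducible intronic contigs and 13.65% in exonic ones. The share of all intronic sequence within 200 bases of an intronic contig was not computed. Whether hairpins lay near contigs more often than other intronic sequence was therefore not tested. RefSeq (GRCm38.p6) names the mature sequences of 10 of the 15. Those of the nearest hairpins with a RefSeq entry are printed 5′ to 3′ with the seed, bases 2 to 8, in capitals, to show which microRNAs these intronic RNAs flank.
mmu-miR-326-3p: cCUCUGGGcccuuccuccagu
mmu-miR-326-5p: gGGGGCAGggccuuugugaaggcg
mmu-miR-107-3p: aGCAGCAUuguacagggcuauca
mmu-miR-511-3p: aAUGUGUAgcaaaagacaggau
mmu-miR-1958: uAGGAAAGuggaagcaguaagu
mmu-miR-500-3p: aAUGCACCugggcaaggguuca
mmu-miR-339-5p: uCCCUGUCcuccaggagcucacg
mmu-miR-361-5p: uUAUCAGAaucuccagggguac
No seed was shared among these sequences.

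The contig nearest to a hairpin lay in Arrb1, which encodes beta-arrestin 1, and ended 3 bases before Mir326 (chr7:106700027-106700775, plus strand, level 0.234). In Pank1, a pantothenate kinase gene of coenzyme A synthesis, a contig began 10 bases beyond Mir107 in the direction of transcription, at level 0.123. In Mrc1, the mannose receptor of macrophages, a contig ended 16 bases before Mir511 at level 0.055. The Arrb1 level lay below the 95th percentile of all intronic contigs (0.247) and the Mrc1 level below the 5th (0.059). Erp44, a chaperone gene of the secretory pathway, was the one host with contigs on both sides of a hairpin: 1 ended 96 bases before Mir1958 at level 0.127 and 1 began 23 bases after it at level 0.082. The remaining named hairpins, Mir500, Mir339, Mir361, Mir1904, Mir3067 and Mir128-1, had a contig at least 23 bases away, at levels of 0.064 to 0.185.

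The typical intronic contig was long and faint. The deposited level is a number of read bases per kilobase of contig, scaled to the mapped bases of both libraries, so that it takes length into account. Its median over the 71372 intronic contigs was 0.101, with a middle range (25th to 75th percentile) of 0.079 to 0.134. Reproducible contigs that touched exons had a median level of 0.932, those antisense to genes 0.144 and those outside genes 0.126. Only 0.680% of intronic contigs reached a level of 1, against 47.8% of exonic contigs. The median intronic contig was 971 bases long (705 to 1470), which was longer than the medians of 818 bases for exonic, 812 for antisense and 807 for contigs outside genes. It held 4443 read bases, the equivalent of 44.0 whole reads in both libraries together, whereas the median exonic contig held 35090.

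**Figure D1:**
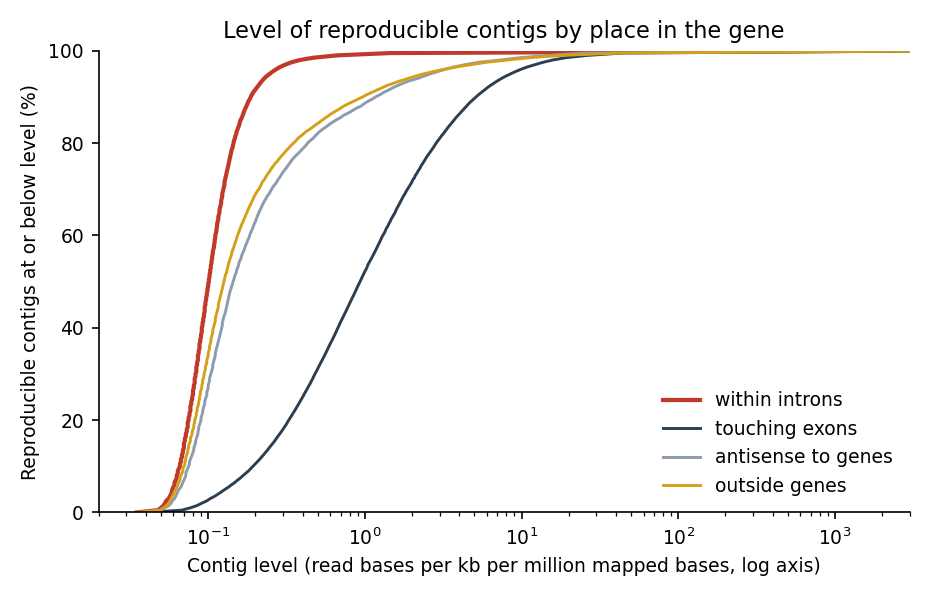
Share of reproducible contigs (vertical axis, percent) at or below each level (horizontal axis, read bases per kb, scaled to mapped bases, log scale), by place in the gene. The curve for contigs within introns rises to 50% at 0.101, left of the curves for antisense contigs, contigs outside genes and contigs touching exons, which reach 50% at 0.144, 0.126 and 0.932.

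Together the intronic contigs covered 96.3 Mb of the mm9 genome and made up 37.3% of all reproducible contigs, yet they held 1.96% of the signal, where signal is level times length in kilobases. Exonic contigs covered 202 Mb and held 92.3% of it. The share of the intronic contigs fell to 1.09% when contigs touching an exon of the authors' Cufflinks models were also left out, and to 1.496% without the 81 contigs at level 10 or more. The latter alternative was chosen after the data were seen. By level alone, without length, their share was 5.26%.

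The threshold itself shaped these numbers. The field is given in steps of 0.01, so 53639 intronic contigs stood at 0.00 and 17733 at the limit of 0.01, with no finer order among them. Those at 0.01 had a median level of 0.080 and a median length of 662 bases. The 15108 intronic contigs just outside, at 0.02, had a median level of 0.072 and a median length of 559 bases. All intronic contigs that failed had a median level of 0.048 and a median length of 299 bases. No intronic contig with fewer than 2212 read bases met the threshold, so a short contig could enter only at a high level. The plot of length against level shows this as a sloping lower edge. The greater median length of the intronic contigs beside the brighter classes is therefore not independent of the threshold.

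**Figure D2:**
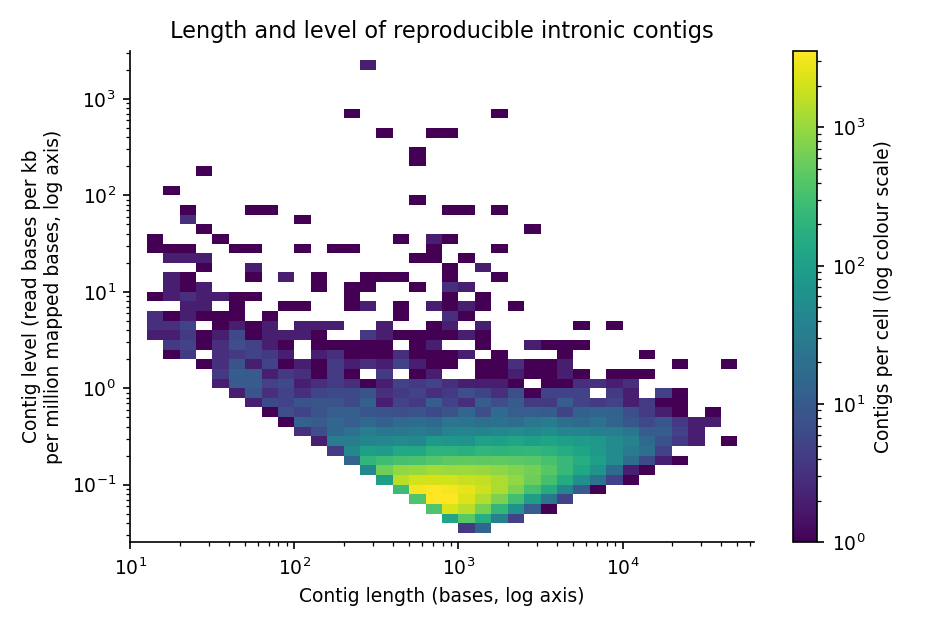
Number of reproducible intronic contigs (colour, log scale) by length (horizontal axis, bases, log scale) and level (vertical axis, read bases per kb, scaled to mapped bases, log scale). Most of the 71372 contigs lie near the medians of 971 bases and 0.101, while 81 lie at level 10 or more and 279 are at least 10000 bases long.

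Level and length had a rank correlation near 0 over all contigs (Spearman rho 0.08, across contigs that share both libraries). Median levels were nevertheless above that of the class among the few contigs at either end of the length range. There were 149 contigs shorter than 50 bases, with levels from 0.953 to 183 and a median of 3.51. At the other end 279 contigs were at least 10000 bases long, with a median level of 0.297, and held 8.30% of the intronic signal, and 28 were at least 20000 bases long. Median level and length differed little from chromosome to chromosome, at 0.096 to 0.104 and 950 to 1025 bases. Plus-strand contigs were 50.3% of the class.

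The signal was concentrated in very few places. The contig with most signal held 6.02% of all intronic signal, the top 10 held 20.3% and the top 100 held 28.6%. The 11 contigs at level 100 or more held 19.7%, and the 81 at level 10 or more held 24.2%. The remaining signal was spread thinly: 2220 contigs were needed to reach 50%. The contigs at level 10 or more had a median length of 167 bases (14 to 2765). They lay in 71 genes, of which 66 had a TPM value and 34 were below 1 TPM in both libraries. Of all 7892 hosts with a TPM value, 6214 reached 1 TPM in both libraries.

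The highest contig was 260 bases long, at level 2460, in ENSMUSG00000085916 (chr17:71312985-71313244, plus strand), a gene with no symbol in the name table. The next was in Gphn, the gene for gephyrin, a scaffold protein of inhibitory synapses that also makes the molybdenum cofactor (chr12:79451855-79452164, plus strand, 310 bases, level 2000). Gphn itself was at 2.96 and 3.94 TPM. An intronic contig of Il31ra, a receptor gene for interleukin 31, stood at level 753 although the gene was at 0.06 and 0.05 TPM. The 4 next in level were in Cmss1 (720), Tecpr2 (491), Ddah1 (476) and Camk1d (417). Tecpr2 is an autophagy gene, Ddah1 encodes an enzyme that breaks down methylated arginine, and Camk1d encodes a calcium-dependent kinase. Slc22a29, of the organic anion transporter family, followed at 284 with a host level of 0.02 and 0.04 TPM. Commd10 (219) and Kcnk2, a potassium channel gene (83.9), completed the 10 highest of at least 50 bases. Kcnk2 was at 0.05 and 0.00 TPM. These contigs lay between 1629 and 19572 bases from the nearest same-strand exon.

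The authors' Cufflinks exons gave another value at the same places, in RPKM, reads scaled to exon length and library size, for each replicate of the mm9 table. They differed strongly from the contig level at most of the high contigs. The highest value of a Cufflinks exon inside the Gphn contig was at 3.62 and 3.39 RPKM, that inside the Il31ra contig at 0.0131 and 0.0790, and that inside the Tecpr2 contig at 0.736 and 1.08. The values came closest to the level in 2 contigs. The exon in the Cmss1 contig (chr16:57390651-57392261, minus strand, 1611 bases) was at 451 and 342 RPKM, and that in the Ddah1 contig (chr3:145541447-145542363, plus strand) at 180 and 259 RPKM. Over the 38 contigs at level 10 or more that contained a whole Cufflinks exon, the median level was 28.1, and the median RPKM of the exons 0.423 and 0.704. Whether the reads of these contigs also match other places in the genome was not tested.

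The 20 genes with the largest summed intronic signal fell into 2 kinds, seen in the plot of the first 13. In 13 of them a single contig at level 10 or more made up most of it. Cmss1 led with a summed signal of 1167, of which its highest contig held 99.4%, and without contigs at level 10 or more it kept 6.74. ENSMUSG00000085916 (644), Gphn (629), Ddah1 (441), Tecpr2 (325), Il31ra (174), Slc22a29 (169), Camk1d (151), Btbd9 (127), Commd10 (124), Lpp (83.6) and Traf5 (58.6) were among this kind.

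**Figure D3:**
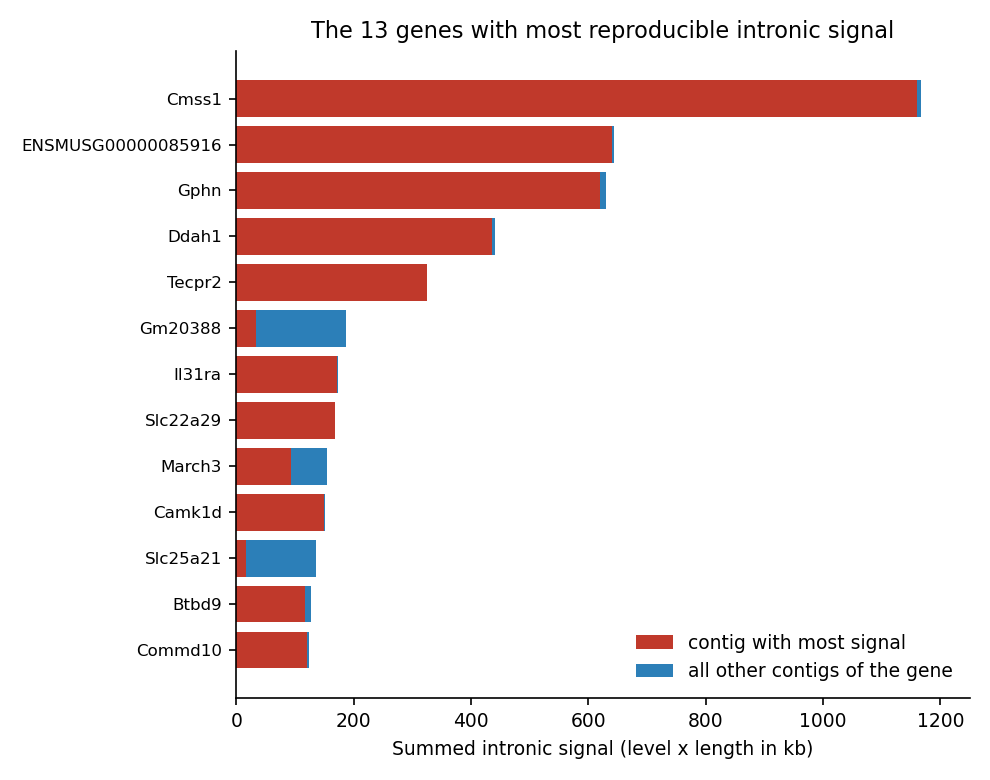
Summed signal of reproducible intronic contigs (horizontal axis, level times length in kb) in the 13 genes with most of it. Red is the contig with most signal and blue all other contigs of the gene: red makes up nearly all of Cmss1 (99.4%), whereas blue prevails in Slc25a21 and Gm20388.

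In the other 7 genes the signal was spread over more contigs, and in 6 of them no contig was above level 1.93. The exception was Gm20388, whose signal of 187 fell to 84.6 without contigs at level 10 or more. In March3 a single long contig held 60.1% of the signal. March3, which encodes a membrane-bound ubiquitin ligase, had 11 contigs with a summed signal of 154, covering 59.5% of its 158 kb of intronic sequence. The gene was at 47.9 and 62.7 TPM. Slc25a21, the mitochondrial carrier of oxodicarboxylic acids, had 97 contigs, a signal of 135 and 78.4% of 480 kb covered, at 8.10 and 9.90 TPM. Its intronic signal was 2.12 times its exonic signal. Sox6, a transcription factor that silences embryonic globin genes in definitive red cells, had 44 contigs with a signal of 80.2 in 559 kb, at 6.80 and 8.78 TPM. St6galnac3, a sialyltransferase gene, had 169 contigs covering 69.5% of its introns at only 1.66 and 1.71 TPM, and Specc1, Pde4d and Gm20388 had 28, 158 and 200 contigs. The span of Gm20388 is 4435 kb long and takes in other genes, and 105 of its 200 contigs also lay in another span. Ranked without contigs at level 10 or more, a choice made after the data were seen, the list opened with March3, Slc25a21, Gm20388, St6galnac3, Sox6, Specc1 and Pde4d and went on with Diaph3 (57.4), a formin gene, Adk (54.5), the adenosine kinase gene, and Ncoa7 (49.5).

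By number of contigs Sox5 was first with 233, followed by Auts2 (219), Gm20388 (200), Dennd1a (175), St6galnac3 (169), Vps13b (166), Rabgap1l (159), Pde4d (158), Exoc4 (156) and Fgfr2 (150). For Fgfr2, a receptor of fibroblast growth factors, 110 of the 150 also lay in another span. Sox5 and Auts2 were weakly expressed, at 0.71 and 1.27 TPM and at 0.60 and 0.65 TPM, and their median contig level was 0.092 and 0.089. By the ratio of intronic to exonic contig signal, among genes of at least 1 TPM in both libraries, the order was Cmss1 (112), Gphn (37.3), Immp2l (12.6), Tecpr2 (12.03), Cfhr2 (9.92), Commd10 (9.17), Btbd9 (8.70), St6galnac3 (7.80), Ddah1 (6.08) and Traf5 (5.41). All but Immp2l and Cfhr2 were also among the 20 genes with most signal. In Cfhr2, a complement factor H related gene, 1 contig at level 28.7 that also lay in the span of Gm16332 held 99.9% of the signal, and without it 0.0529 was left against an exonic signal of 4.74. Immp2l, a protease gene of the mitochondrial inner membrane with 1304 kb of intronic sequence, and St6galnac3 reached this ratio with no contig above level 1.86. In all, 41 of 6214 expressed hosts had more intronic than exonic signal.

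The longest contig was 47871 bases long and lay in March3 (chr18:57007904-57055774, minus strand, level 1.93). Gpc3, which encodes the heparan sulfate proteoglycan glypican 3, held one of 45501 bases at level 0.283, and the gene was at 187 TPM in both libraries. The others of the 10 longest lay in Cdyl (34928 bases), Slc25a21 (32044), Nmnat3 (31803), Pip4k2a (31184), Arhgef12 (27197), Tnrc6b (26596), Zfp292 (25965) and Zfand3 (25920), at levels of 0.303 to 0.536. Their hosts ranged from 2.60 to 17.6 TPM. Each of the 10 was an unbroken run of reads at least 1385 bases from an exon. Annotated junctions across them were read in both replicates: for the March3 contig the junction with most reads had 884 and 1832 reads, and for the Gpc3 contig 3793 and 5778.

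Host genes were long and moderately expressed. Of the 24752 genes with any intronic stretch, 8098 (32.7%) held a reproducible intronic contig, and of the 10762 genes that also reached 1 TPM in both libraries 6214 (57.7%) did. By GENCODE biotype 7525 hosts were protein-coding, 136 antisense, 96 processed transcripts and 71 long intergenic noncoding RNAs, and 222 had no match. Hosts had a median of 4 contigs, 1987 had 1 and 42 had at least 100. Their median intronic length was 36.8 kb, against 6.13 kb for expressed genes without a contig, while their median level at 1 TPM or more was 6.76 against 15.3 TPM. In these hosts TPM was 6.36 in replicate 1 and 7.12 in replicate 2 at the median, and 99.9% were within 2-fold between the libraries.

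The share of hosts rose with intronic length at each level of expression, and fell among the most abundant genes. Of genes at 1 to 10 TPM, 8.12% held a contig when their introns summed to under 5 kb, 54.5% at 5 to 20 kb, 91.0% at 20 to 100 kb and 95.7% above 100 kb. Of genes at 100 TPM or more, 14.0% did in all, and 53.3% (exact Clopper-Pearson 95% interval 41.45 to 64.95%, 75 genes) with 20 to 100 kb of introns. The rule bears on this, because a contig that runs from an exon into the intron is exonic by definition. In genes at 100 TPM or more with 5 to 20 kb of introns, 4.105% of intronic bases lay in intronic contigs and 88.98% in contigs touching an exon. At 1 to 10 TPM with more than 100 kb the values were 19.1% and 7.94%. Over all expressed genes 19.9% of intronic bases lay in intronic contigs and 28.6% in exonic ones.

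**Figure D4:**
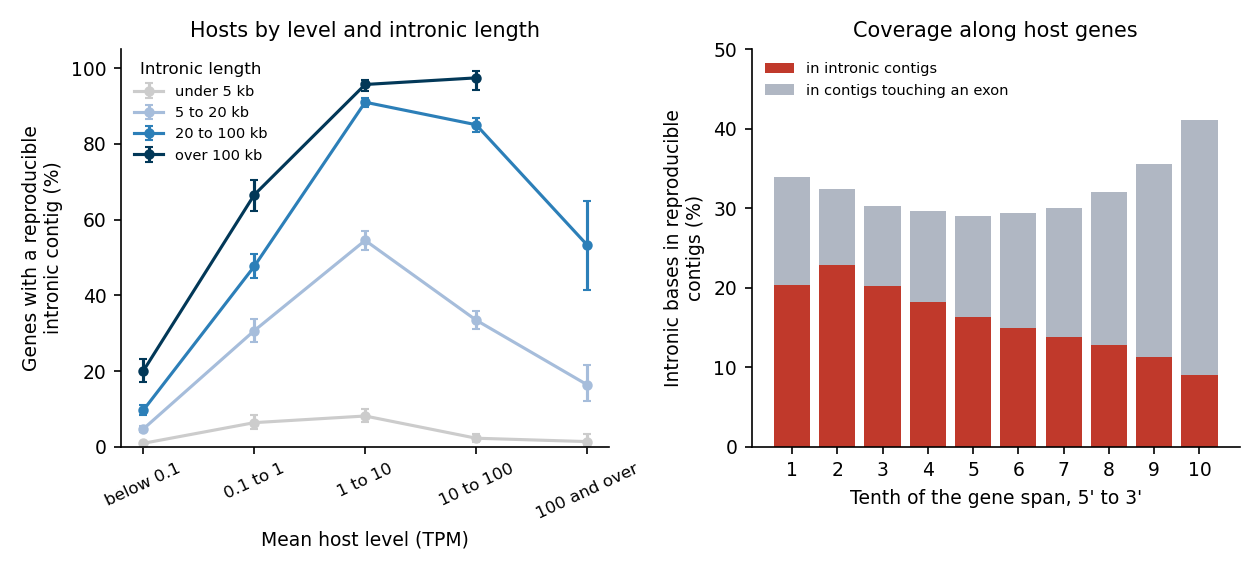
Left, share of genes with a reproducible intronic contig (percent, with exact Clopper-Pearson 95% intervals) by mean TPM of both libraries and by summed intronic length, where the share is highest at 1 to 100 TPM and over 100 kb (95.7% and 97.4%). Right, percent of intronic bases in reproducible contigs by decile of the gene span from 5′ to 3′ in 5614 host genes, with the part in intronic contigs (red, 22.9% in the second decile and 9.05% in the last) and the part in contigs touching an exon (grey, 9.51% and 32.0%).

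Across 7892 hosts with a TPM value, summed intronic signal rose with the level of the host (Spearman rho 0.310), with either replicate alone giving 0.307 and 0.312. These points share both libraries, and signal also rose with intronic length (rho 0.510 over 8098 hosts). Signal per kilobase of intron against TPM gave a rho of 0.413. Set against the exonic level of the same gene, the intronic density was low: its median was 1.19% of the exonic contig level over 6214 expressed hosts, with a middle range of 0.498 to 2.59%. A median of 15.2% of a host's intronic bases lay in intronic contigs, and 481 hosts had at least 50% covered. Among hosts with at least 20 kb of introns, picked for this value after the data were seen, the most covered were Smim3 (90.7%), BC002059 (86.6%) and Cenpp (81.9%), a centromere protein gene.

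Intronic contigs covered more of the 5′ part of genes than of the 3′ part. In 5614 protein-coding hosts with at least 20 kb of introns, the share of intronic bases in intronic contigs was 20.3% in the first decile of the span, 22.9% in the second, 15.0% in the sixth and 9.05% in the last. Signal per intronic kilobase, without contigs at level 10 or more, took the same course from 0.0380 in the second decile to 0.0129 in the last. The complement held for contigs touching an exon, which took 9.51% of intronic bases in the second decile and 32.0% in the last. The first intronic stretch of a gene held 22.3% of the contigs on 17.02% of the intronic bases, the second 14.7% on 12.5%, and all later ones 62.9% on 70.5%. Of 113858 intronic stretches in host genes, 22879 (20.1%) held a contig, with a median length of 6.30 kb against 1.59 kb for all stretches.

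Contigs that reach an exon are exonic by the rule, so those counted next to an exon had stopped short of it. The share of all intronic sequence that lies as near to an exon was not computed. The median gap to the nearest same-strand exon of any gene was 3245.5 bases (983 to 9827). There were 2202 contigs (3.09%) within 100 bases of an exon and 41 within 10 bases, and those within 100 bases had a median level of 0.103, against 0.101 for the rest. A small part of the intronic contigs met an exon or a contig of the other strand. Of the class, 971 contigs (1.36%) faced an exon of the opposite strand, with a median level of 0.112. A reproducible contig of the opposite strand overlapped 1892 (2.65%), and in 149 of these it stood at 20 times the level or more.

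Spliced reads began or ended inside a small part of the intronic contigs. A contig holds a junction end when the last or first exonic base of a spliced read falls in it. By the rule, a contig holding an end in a same-strand ENSEMBL exon is exonic, so intronic contigs could hold only ends outside those exons. The difference from exonic contigs given next was therefore partly set in advance. Counting junctions with reads in both replicates, 3085 contigs (4.32%, exact Clopper-Pearson 95% interval 4.17 to 4.47%) held an end, against 17.8% of reproducible contigs outside genes and 93.1% of exonic contigs. The interval covers counting error only, and neighbouring contigs of a gene are not independent. A junction seen in replicate 1 or in replicate 2 of the junction table, without asking for the other, gave 14.6% and 19.4%. With at least 5 reads in all, 1878 contigs (2.63%) held an end. The 5197 junctions had a median of 2 and 3 reads in replicates 1 and 2. Contigs with an end had a median level of 0.165 and those without 0.099.

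In 489 contigs, junctions of at least 5 reads entered on one side and left on the other, and in 360 of them, in 332 genes, both led to annotated exons. Such a segment has the form of a cassette exon, which is included in some transcripts and skipped in others. The search for them was chosen after the data were seen. The segments had a median length of 117 bases (78 to 169.25), and 128 (35.6%) had a length divisible by 3, the condition for keeping the reading frame. Among arbitrary lengths 1 in 3 is divisible in this way, and the share of the segments was near that. Inclusion, the mean of the reads of both joining junctions over that mean plus the reads that skip the segment, had a median of 5.40% in replicate 1 and 5.44% in replicate 2. It was below 10% in both for 219 segments and at least 50% in both for 14. The difference between replicates had a middle range of -1.33 to 1.23 percentage points (Spearman rho 0.92 across the 360 segments, which share their genes' coverage). Of these segments, 34 matched an exon of the Cufflinks models to the base.

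**Figure D5:**
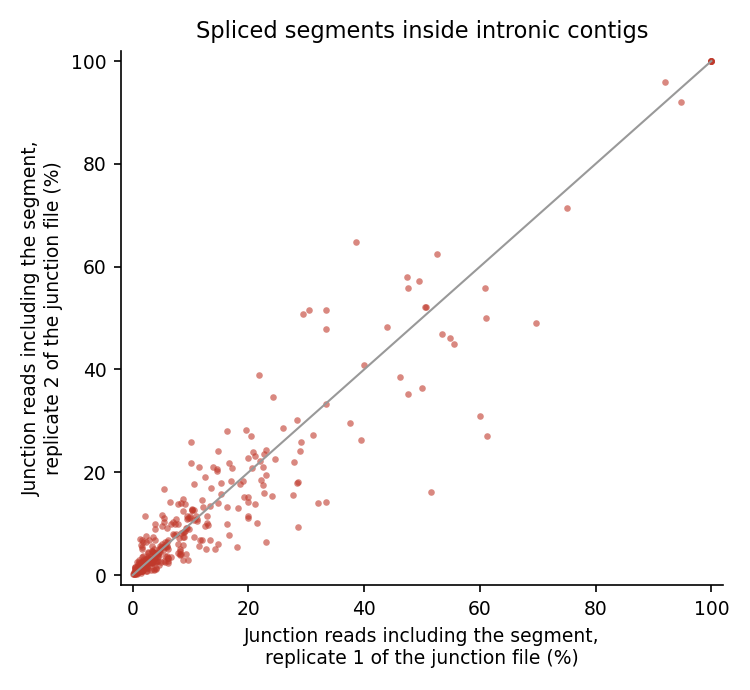
Percent of junction reads that include each of 360 spliced segments inside intronic contigs, in replicate 1 (horizontal axis) and replicate 2 (vertical axis) of the junction table, with a line of equality. Most points lie near the origin, where 219 segments are below 10% in both replicates, and 14 lie at 50% or more in both.

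The segment with most reads lay in Hnrnpc, which encodes a nuclear protein that binds uridine tracts and shields introns from spurious splicing. It was 530 bases long (chr14:52717690-52718219, minus strand) within a contig of 15402 bases at level 2.33. Its junctions had 1081 and 250 reads in replicate 1 and 1424 and 367 in replicate 2, beside 428 and 709 that skipped it, an inclusion of 60.9% and 55.8%. In both replicates 1 of the joining junctions had far more reads than the other, so this inclusion is a mean of unequal sides.

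In Fam49b a segment of 51 bases (chr15:63854125-63854175, minus strand) had 122 and 103 reads in replicate 1, 209 and 171 in replicate 2 and none that skipped it, and it was 1 of 6 segments with no skipping reads. Abcg2, an efflux transporter of the ATP-binding cassette family, had a segment of 83 bases included at 9.25% and 9.15%. Other segments lay in Hpcal1, a calcium sensor gene (86 bases, 24.6% and 22.7%), Pot1b, a telomere protection gene (89 bases, 50.7% and 52.1%), and Usp47, a deubiquitinase gene (60 bases, 28.4% and 30.2%). Nup93, a nuclear pore gene, had one of 52 bases at 12.9% and 9.74%. In Picalm, a clathrin assembly gene, a segment of 193 bases was at 1.51% and 1.43% although its contig was 14746 bases long. These genes were chosen after their values were seen.

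The Cufflinks models overlapped part of the class. An exon of a model touched 9830 intronic contigs (13.8%), and in 3492 a whole model exon filled at least 50% of the contig. Both replicate values were above 0 in 95.8% of these, with medians of 0.0163 and 0.0180 RPKM. The replicates were loosely related at this level: 60.3% of the exons were within 2-fold, the median log2 ratio of replicate 2 to replicate 1 was 0.20 (-0.53 to 0.98), and Spearman's rho was 0.49. Transcripts annotated as retaining an intron were also compared. The median share of a gene's TPM in such transcripts was 6.96% and 6.67% in replicates 1 and 2 over 2698 expressed hosts, and 10.3% and 10.005% over 1900 expressed genes that held no intronic contig.

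Gene groups differed in how often they held intronic contigs, beside the background of 57.7% of expressed genes and a median of 18.5 kb of introns. Of all genes with 20 to 100 kb of introns, 91.0% at 1 to 10 TPM and 85.1% at 10 to 100 TPM were hosts. The groups in this paragraph had median intronic lengths in that range and host shares below both values. Of 22 expressed genes of endothelial, stellate and mesenchymal cells, 18 (81.8%) were hosts, with a median intronic length of 34.8 kb. Coverage within the hosts of this list was low, at a median of 7.32% of intronic bases against 15.2% for all hosts. Reln, the reelin gene that marks hepatic stellate cells, led with 133 contigs covering 45.1% of its introns at 28.9 and 35.3 TPM. Stab2, a scavenger receptor of the sinusoidal endothelium, had 32, Cdh5 had 4 and Lyve1 had 2. Of imprinted and long noncoding genes 10 of 14 (71.4%) were hosts, with 27.3 kb of introns. Grb10, an adaptor of insulin signalling, carried a contig of 21912 bases. Airn, the noncoding RNA antisense to Igf2r, had 12 contigs at 4.23 and 4.17 TPM, Igf2r had 23 and Commd1 had 40. Of mRNA processing and decay genes 19 of 31 (61.3%) were hosts, with 25.8 kb of introns, led by Smg6 (72 contigs), Tent4b (16) and Cstf3 (14). Smg6 acts in nonsense-mediated decay.

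The shares of hosts among red cell and hepatocyte genes were below the 57.7% of expressed genes. Both groups were abundant, and of all genes at 100 TPM or more with 5 to 20 kb of introns 16.4% were hosts. Of 44 genes of red cell proteins and regulators, 14 (31.8%) were hosts, at a median of 15.8 kb of introns and 160 TPM. Sox6 was first by signal, then Sptb, which encodes beta spectrin of the membrane skeleton (9 contigs, 31.2 and 36.6 TPM), Bcl11a, the repressor of fetal globin genes (12 contigs, 12.1 and 13.6 TPM) and Epb41, protein 4.1 (2 contigs). In the genes of this list 22.4% of intronic bases lay in intronic contigs, against 19.9% over all expressed genes, and 59.0% in contigs touching an exon. Sox6 had the most intronic sequence of the list (559 kb), with 33.3% of it covered. The pooled share leans on this gene and was not recomputed without it. The median signal per intronic kilobase of the 14 hosts in the list was 0.0652, against 0.0176 for all hosts. The latter value is not matched for expression. It was 0.02775 for hosts at 10 to 100 TPM and 0.0333 for hosts at 100 TPM or more. Of 46 hepatocyte genes 18 (39.1%) were hosts, at 10.1 kb of introns and 202 TPM. They were led by Prox1, a hepatoblast transcription factor (11 contigs, 3.32 and 3.64 TPM), Gc, F10 and Ctsh, with 6, 1 and 4. Alb and Afp, the albumin and alpha-fetoprotein genes, held none. Of the intronic bases of these 46 genes 65.05% lay in exonic contigs.

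Blood cells other than red cells gave 13 hosts of 32 (40.6%, median 7.19 kb of introns), with Kit (19 contigs), the stem cell factor receptor, Adgre1 (20), which encodes the macrophage antigen F4/80, Mrc1 (14) and Myb (2). Cell cycle and replication genes gave 11 of 35 (31.4%, 12.9 kb), with Rb1, the retinoblastoma gene (29 contigs), Cdk6 (68), Cenpf (7) and Bub1b (5). Iron, heme and housekeeping genes gave 8 of 22 (36.4%, 6.89 kb), led by Uros, a heme synthesis gene, with 4 contigs, Blvra with 3, and Slc11a2 and Alas1 with 1 each. Of 4 expressed genes of muscle and adjacent tissue 2 were hosts. The most signal in that list came from Cela1 (2 contigs) and from Ttn, Krt5 and Des with 1 each. The Ttn contig was 30 bases long, and the gene was at 0.29 and 0.01 TPM.

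The shares were lowest among splicing factor genes and genes that host small nucleolar RNAs. Of 51 splicing factor genes 7 (13.7%) were hosts, at a median of 12.6 kb of introns and 75.7 TPM, and of all genes at 10 to 100 TPM with 5 to 20 kb 33.45% were. Rbm25 held 2 contigs, 1 of them 5977 bases long, Ptbp2 16, Srsf4 2 and Tia1 3. Of 45 small nucleolar RNA hosts 4 (8.89%) held intronic contigs, at a median of 2.24 kb and 211 TPM. They were Dnajc7 with 9 contigs, and Rcc1, Cwf19l1 and Mphosph10 with 1 each. Of all genes at 100 TPM or more, 1.36% were hosts with under 5 kb of introns and 16.4% with 5 to 20 kb. The list was set beside these shares by its medians only, so an excess over genes of like length and level was not tested. In both groups most intronic sequence lay in contigs that touch an exon, 88.8% and 88.6% of intronic bases, against 5.81% and 4.57% in intronic contigs.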

How the data were processed

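The contig signal (level) and score (irreproducibility value) were deposited by the authors on mm9 for both libraries together. The aligner and contig caller are not named in the labels or headers. The score column has no header. Level times length tracks the read bases of each contig in a fixed ratio. Junction counts were deposited as whole reads for each replicate, and mm9 exons and spans came from ENSEMBL V65 per the deposited readme, with RPKM for each replicate. Expected count and TPM values were deposited by the authors for mm10. Contigs were placed with bedtools 2.31.1, on the same strand with 1 base as overlap, and per-gene values were summed with Python 3.11.15, numpy 2.4.6, pandas 2.3.3 and scipy 1.17.1. A contig inside several spans (765 contigs) counts for each of them. Placement was tested on simulated data. Symbols were matched by identifier for 32620 of 37310 genes, and 15 listed symbols had no match. A median carries no n of its own beyond the contigs or genes named.

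Named were the 20 genes with most intronic signal, the 10 highest contigs of at least 50 bases, the 10 longest, the 10 genes with most contigs, the 10 with the highest intronic to exonic ratio, and 4 members of each list; some of these are not reported here. The members nearest the threshold are tied and are given as groups. The contigs, lists and rules were chosen with earlier results of these data known. Alternatives were other thresholds, overlaps, exon sets, minimum lengths and distances, a single replicate, and mm9 RPKM for TPM. No genome of the mm9 build was used, so no contig sequence is printed. With 1 group there is no test between conditions.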

Additional observations from a re-analysis of the deposited data

How the results depend on the processing

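Of 66 values recomputed under the alternatives, 39 stayed within a set bound of the main value and 27 moved. The bound was 1.5 times for counts and the 95% interval for medians and for shares of contigs. For the correlation and the host level it was the standard deviation of the single-replicate values, and for the signal share equality after rounding. A change of direction could be counted only for the correlation, and none was. An irreproducibility value of at most 0.001 gave a median level of 0.109, a median length of 1153 bases, 1.87% of the signal, 5.19% of contigs with a junction end and a rank correlation of intronic signal with host TPM of 0.27. A value of at most 0.1 gave 128678 contigs, a median level of 0.083, a median length of 666 bases, 2.15% of the signal, 2.93% with a junction end and a correlation of 0.38. Leaving out contigs on Cufflinks exons gave a median level of 0.098, a median length of 965 bases, 1.09% of the signal and 3.83% with a junction end. Contigs at least 100 bases from an exon held 1.93% of the signal, with 0.0419% at exactly that distance and a correlation of 0.30 (0.3025), and contigs of at least 50 bases gave 0.30 (0.3024). Without contigs at level 10 or more, an alternative chosen after seeing the data, the signal share was 1.496% and the correlation 0.32. Junctions with at least 5 reads gave 2.63%, and single replicates 14.6 to 19.4%. Within 10 bases of an exon lay 0.05745% of contigs. The mm9 RPKM gave a correlation of 0.34, single replicates 0.307 to 0.312, and level alone a signal share of 5.26%. Requiring 1 base in the gene span selected the same 71372 contigs, so the contig values under it, counted among the 39, were bound to stay. The median host TPM was 4.62 (4.34 and 4.84 for single replicates). No paired analysis was possible because there is 1 group. No contig with fewer than 2212 read bases is in the class, and how this would change with depth was not tested.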
